A study of Homo sapiens with 4 samples.

Results

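Human chromosome 19 carries 264 entries whose symbol begins with ZNF in the deposited expression table of MKN28 cells, and 183 of them (69.3%) reached 0.5 FPKM or more in any of the 4 libraries. These 183 entries, under 180 distinct symbols, are the chromosome 19 ZNF genes described here. They were chosen by their measured FPKM, so that their being expressed is no finding, and 165 of the 183 were at or above 0.5 in every library. The closest to the boundary inside it were ZNF540, ZNF585B (ENSG00000267360) and ZNF625 (ENSG00000213297), with highest values of 0.503, 0.523 and 0.530 FPKM. The closest outside it were ZNF114, ZNF607 (ENSG00000267552) and ZNF737, with highest values of 0.463, 0.414 and 0.399. Of the 81 entries outside, 15 were listed at 0 in every library.

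MKN28 is a human gastric adenocarcinoma cell line. RNA came from cells with a tet-on construct of luciferase (Luc, the control), KIAA1324 WT (the library titled MKN28_1324), KIAA1324 3NQ or KIAA1324 ΔTM, with 1 library each. KIAA1324 is a glycosylated transmembrane protein, 3NQ has asparagine-to-glutamine changes at its N-glycosylation sites, and ΔTM lacks the transmembrane domain. All lines were made with retroviral vectors and drug selection, and whether the cells for RNA received doxycycline was not given in the sources used here. FPKM is the number of fragments scaled to transcript length and to the mapped fragments of the library, so that levels of different genes can be set side by side per length. KIAA1324 itself was at 2.86 FPKM (Luc), 11185 (WT) and 8197 (3NQ). It was listed at 0 under the ΔTM label, which goes against that label's construct. A listed 0 can be a failed estimate, and no cause was tested. The epithelial genes EPCAM (345 to 391 FPKM) and CDH1 (233 to 272) were high in every library, the keratin genes KRT8 (4510 to 8501) and KRT18 (2115 to 3684) were lowest in WT (any part in the results was not tested), the leukocyte gene PTPRC reached at most 0.115, and the collagen gene COL1A1, a fibroblast marker, lay between 12.1 and 15.3. With 1 library per group no difference had a replicate check, no p-value was computed, and a difference between lines cannot be told apart from one between single preparations. In bulk RNA, fewer cells expressing a gene and less RNA per cell cannot be told apart either.

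ZNF genes encode proteins with repeated C2H2 zinc fingers, short units folded around a zinc ion that bind DNA. Many on chromosome 19 arose by tandem duplication, lie in clusters of close relatives, and carry a KRAB domain that recruits the corepressor TRIM28, the histone methyltransferase SETDB1 and HP1 proteins. Transposable elements are among their known targets.

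ZNF350, also known as ZBRK1, is a KRAB zinc finger repressor that binds BRCA1 and is known for repressing GADD45A. It was the entry that stood furthest apart. The bases before the start site of ZNF350 and of its nearest expressed ZNF neighbours are shown because these genes lie side by side while ZNF350 alone was high in a single library. They come from RefSeq on GRCh38.p14, the 250 bases before the start site on each gene's own strand, and capitals mark AANATGGC on either strand, the core of the motif of YY1, a zinc finger factor that binds many promoters. ZNF613 lies on the plus strand at chr19:51927222-51927471, ZNF350 on the minus strand at chr19:51986841-51987090, ZNF615 on the minus strand at chr19:52008212-52008461 and ZNF614 on the minus strand at chr19:52028380-52028629.
ZNF613: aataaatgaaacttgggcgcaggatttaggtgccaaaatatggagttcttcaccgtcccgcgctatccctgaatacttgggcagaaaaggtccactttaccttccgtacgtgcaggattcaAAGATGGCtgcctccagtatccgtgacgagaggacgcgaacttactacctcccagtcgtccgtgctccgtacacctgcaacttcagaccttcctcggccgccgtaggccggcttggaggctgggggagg
ZNF350: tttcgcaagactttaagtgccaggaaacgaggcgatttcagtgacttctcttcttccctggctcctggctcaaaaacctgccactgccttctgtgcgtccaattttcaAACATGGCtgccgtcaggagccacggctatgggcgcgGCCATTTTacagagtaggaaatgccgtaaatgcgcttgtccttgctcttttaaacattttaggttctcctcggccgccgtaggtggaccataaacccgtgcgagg
ZNF615: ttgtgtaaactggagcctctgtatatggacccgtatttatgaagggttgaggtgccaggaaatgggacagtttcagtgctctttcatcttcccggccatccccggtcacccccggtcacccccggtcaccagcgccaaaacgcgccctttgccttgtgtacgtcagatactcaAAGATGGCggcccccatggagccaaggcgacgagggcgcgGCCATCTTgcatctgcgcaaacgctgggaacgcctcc
ZNF614: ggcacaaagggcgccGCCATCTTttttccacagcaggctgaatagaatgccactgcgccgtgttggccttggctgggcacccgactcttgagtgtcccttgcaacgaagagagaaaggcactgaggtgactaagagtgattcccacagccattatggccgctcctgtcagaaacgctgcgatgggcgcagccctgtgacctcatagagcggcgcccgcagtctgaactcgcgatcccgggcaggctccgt
Counted from the start site, the matches began at -142 and -105 for ZNF350, at -129 for ZNF613, at -77 and -37 for ZNF615 and at -235 for ZNF614. The same letters stood once each before ZNF577 (-122) and ZNF432 (-74), and in none of the windows of ZNF841, ZNF616 and ZNF836. The letters were chosen after the ZNF350 sequence was seen.

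Over all chromosome 19 ZNF genes, 160 of the 180 symbols had a window of 300 bases in the RefSeq table, 250 before and 50 after the start site. AANATGGC was found in 26 of these (16.2%), against 10.8% of the 9030 windows of all genes expressed at 0.5 FPKM or more, 9.88% of the 172 windows of ZNF genes elsewhere and 6.82% of all 27305 windows. GGGCGG, the letters of an SP1 box, was found on either strand in 66.9% of the chromosome 19 ZNF windows and 70.7% of the expressed genes. TATAAA was found in 2.50% and 5.30% of the same sets. A match is a run of letters and no measured binding.

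ZNF350 (ENSG00000256683) spans 52467596 to 52490109 of chromosome 19 (GRCh37, minus strand), and no other entry of the table overlaps it. It was listed at 0 (Luc), 674 (WT), 0.143 (3NQ) and 0.153 FPKM (labelled ΔTM). WT was the single library with a value above 1, and since Luc was listed at 0 no fold is given. ZNF350 was thus included through its WT value alone, so that its place among the members in WT is a description. ZNF350 alone made up 39.2% of the summed FPKM of the chromosome 19 ZNF genes in WT. The sums were 1148 (Luc), 1720 (WT), 1079 (3NQ) and 1055 FPKM (labelled ΔTM). Without ZNF350 the WT sum was 1046, the lowest of the 4.

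The genes around ZNF350 did not share its value in WT. Of the 15 other entries that start within 250 kb of its start, none was 1.5-fold or more from Luc in any library on the log2(FPKM + 1) scale. The next gene on the centromere side, ZNF613, measured 6.26 (Luc), 6.44 (WT), 6.67 (3NQ) and 6.96 FPKM (labelled ΔTM). The next on the other side, ZNF615, measured 6.87, 6.33, 6.75 and 5.92 in the same order. These flanking genes were level across the libraries to within 0.13 and 0.19 on the log2 scale. ZNF649, which is followed by ZNF613, was listed at 0, 0.123, 0.0985 and 0.252 FPKM and did not reach the level for inclusion.

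**Figure D1:**
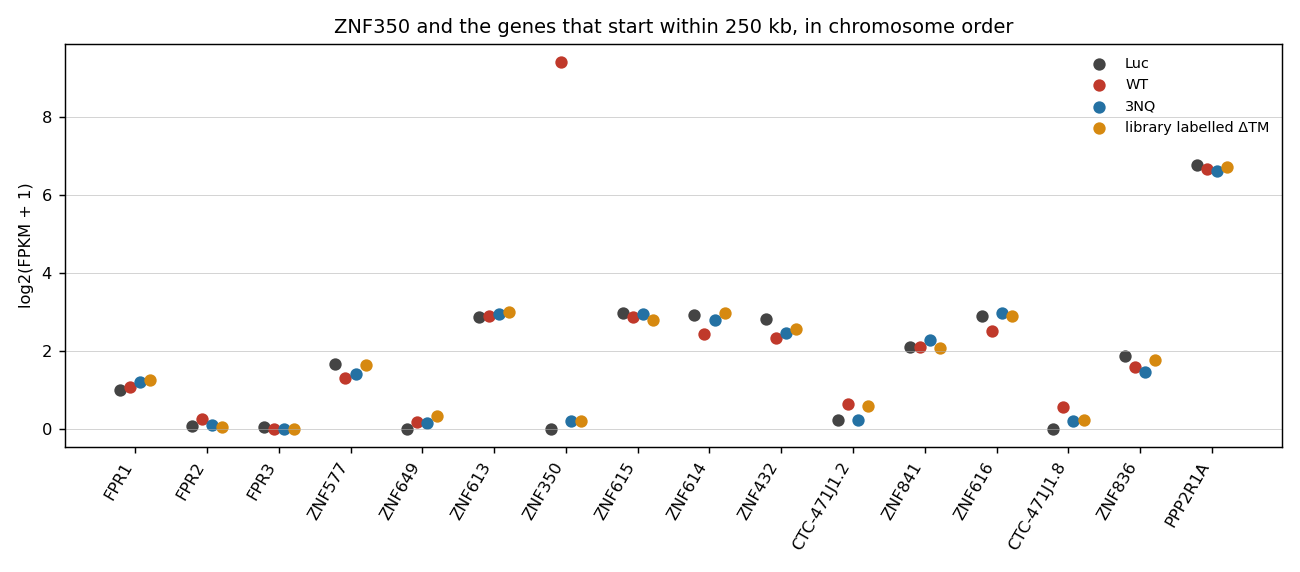
log2(FPKM + 1) of ZNF350 and the 15 other entries that start within 250 kb, in chromosome order, with 1 point per library. ZNF350 stands at 674 FPKM in WT and near 0 in the other 3 libraries, while ZNF613 and ZNF615 on either side keep nearly the same value in all 4.

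Further out, several ZNF neighbours were lowest in WT by less than 1.5-fold. ZNF614 measured 6.54 (Luc), 4.41 (WT), 5.93 (3NQ) and 6.85 FPKM (labelled ΔTM), a log2 ratio of -0.48 in WT. ZNF432 measured 6.01, 4.06, 4.47 and 4.87, and ZNF616 measured 6.45, 4.71, 6.77 and 6.42. ZNF577 was at 2.14, 1.48, 1.65 and 2.09. All 4 genes were therefore lowest in WT, with log2 ratios to Luc from -0.34 to -0.48. ZNF841 was at 3.30, 3.30, 3.80 and 3.18, and ZNF836 at 2.66, 1.99, 1.76 and 2.38, so that neither had its lowest value in WT. PPP2R1A, the scaffold subunit of the phosphatase PP2A and the last gene of the interval, lay between 97.6 and 109 FPKM, and the formyl peptide receptor genes FPR1, FPR2 and FPR3 at the other end reached at most 1.40.

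The chromosome 19 ZNF genes were expressed at low levels. Their median was 3.96 (Luc), 4.06 (WT), 4.10 (3NQ) and 3.76 FPKM (labelled ΔTM). ZNF genes of other chromosomes chosen at the same level (218 of 280 entries) had medians of 5.48 to 6.02, and the 731 other genes of chromosome 19 had medians of 12.9 to 13.5. By mean over the 4 libraries, 23 of the 183 were below 1 FPKM, 85 were from 1 to below 5, 50 from 5 to below 10, 15 from 10 to below 20 and 10 at 20 or more. The order of the levels was nearly the same in all libraries, with Spearman correlations across the 183 genes from 0.931 to 0.975, which are a description, since the same genes of the same cell line are compared.

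By mean over the 4 libraries ZNF350 came first, through its WT value alone. The most abundant after it was ZNF146, which encodes a protein made almost wholly of zinc fingers and without a KRAB domain. It measured 71.9 (Luc), 77.6 (WT), 82.6 (3NQ) and 71.8 FPKM (labelled ΔTM). ZNF468 followed with 37.6, 34.4, 35.8 and 38.1. ZNF561 was at 26.5, 27.5, 29.3 and 23.4, and ZNF544 at 26.1, 21.4, 29.2 and 22.3. These 4 abundant genes stayed within 1.5-fold across all libraries. The transcribed pseudogene ZNF702P (28.0 in Luc, lowest in WT at 19.9), ZNF787 (21.1 to 26.2), ZNF358 (18.8 to 23.8), ZNF28 and ZNF431 complete the 10 highest.

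Genes with a described role in silencing transposable elements or other ZNF genes were not among the most abundant. ZNF91, which represses SVA elements, was at 6.75 (Luc), 7.02 (WT), 5.71 (3NQ) and 5.50 FPKM (labelled ΔTM). ZNF274, which brings SETDB1 to the ends of ZNF genes, was at 8.08, 9.51, 9.77 and 7.26. Both stayed within 1.5-fold of Luc. ZNF93, which represses LINE-1 elements, was listed at 0 in every library. Of the other genes named from background knowledge, ZNF331, ZNF382 and ZNF568 stayed below 0.5 FPKM.

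By position, a gap of more than 1 Mb between starts divided the 264 entries into 16 clusters, numbered here from the short arm end, and 7 of them with at least 10 expressed members held 169 of the 183. The clusters differed in level. Cluster 2 (7069455 to 9903856 on GRCh37) had the highest median of mean FPKM among these 7, 12.3 over 12 expressed of 17 entries, with ZNF561, ZNF358 and ZNF317 at its top. Cluster 15 (52074551 to 54083523), which holds ZNF350, ZNF468 and ZNF28, followed at 6.47 over 33 of 42. Cluster 16 (55987699 to 58992597) at the end of the long arm was the largest, with 47 of 64 expressed and a median of 4.59. Clusters 3, 5, 9 and 12 had medians of 3.05 to 3.51. In cluster 5 (19779605 to 24312654), next to the centromere, 18 of 37 entries were expressed, and ZNF431 led it.

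**Figure D2:**
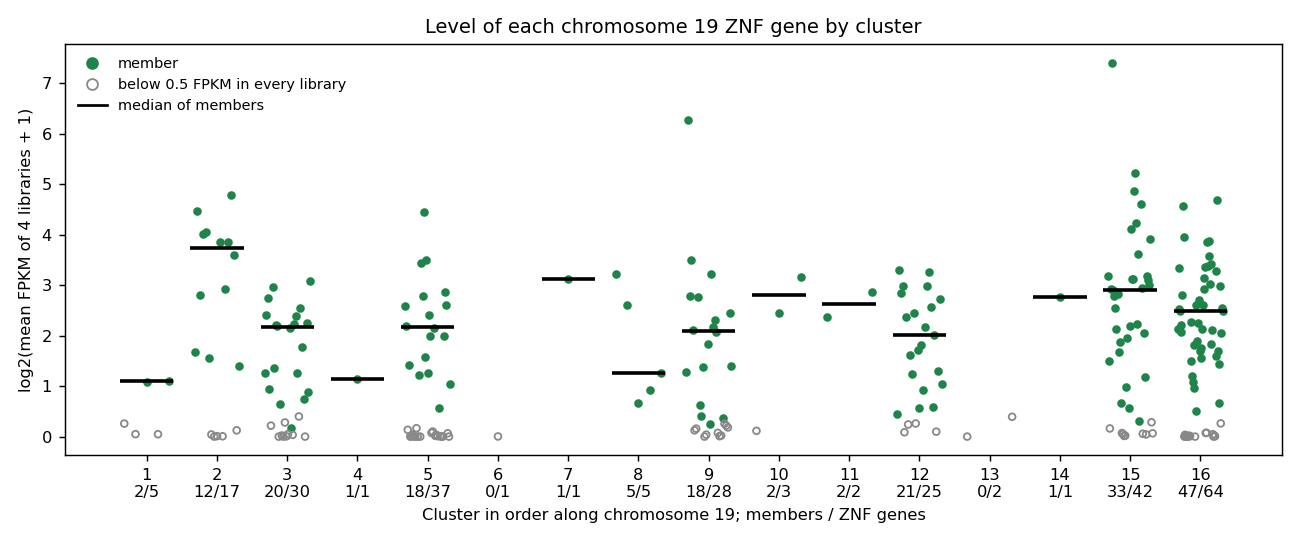
log2 of mean FPKM over the 4 libraries plus 1 for each of the 264 entries, by cluster along the chromosome, with filled points for the 183 expressed entries, open points for the rest and bars for the median of the expressed. Cluster 2 has the highest median of the 7 large clusters, and ZNF146 in cluster 9 stands far above its neighbours. ZNF350 in cluster 15 does so through its WT value alone (674 FPKM).

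The number of zinc fingers was counted in the coding sequence of GENCODE on GRCh37, which was usable for 177 of the 183. The median was 12 fingers, with a range of 0 to 31, the highest in ZNF91, and the entries below the level had a median of 13, with 36 in ZNF208. ZNF350 has 8, ZNF146 has 10, ZNF28 has 15 and ZNF845 has 26. Across the 177 genes the Spearman correlation of finger number was -0.032 with mean FPKM and -0.15 with the log2 ratio of WT to Luc, a description across genes that share ancestry and sequence. The 4 entries without a finger were one of the entries each of ZNF625, ZNF585B and ZNF417, whose symbols are listed more than once, and ZNF321P, all of them short models.

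The comparison of WT with Luc asks what accompanied expression of the intact protein. Log2 ratios are of FPKM + 1, which understates the change of low genes, and a gene was called at 1.5-fold. Of the chromosome 19 ZNF genes 3 were called higher in WT, where the background over all 12642 expressed genes was 3.37%, and 7 were called lower, where the background was also 3.37%. The share of the members called higher (1.64%) was thus below that of all genes, and the share called lower (3.83%) was close to it. The members lay lower in level, with a median of 3.96 FPKM in Luc against 14.2 over all genes. FPKM + 1 lowers the calls of low genes, so that a share below the background does not show less change. The median log2 ratio was -0.048. It was -0.0077 for ZNF genes of other chromosomes, 0.011 for other genes of chromosome 19 and -0.0079 for all genes. Below Luc in WT were 105 of the 183, beside 6480 of all 12642 genes.

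Besides ZNF350, the genes called higher were ZNF137P and ZNF222. ZNF350 reached the 0.5 FPKM for inclusion only through WT, the library in which it was called higher. That call therefore follows from how members were chosen and is a description. ZNF222 measured 3.51 (Luc), 5.85 (WT), 3.11 (3NQ) and 5.48 FPKM (labelled ΔTM), a log2 ratio of 0.60 in WT, and it lay high in WT and the library labelled ΔTM. ZNF564 (3.29, 5.43, 3.12 and 3.11, log2 ratio 0.58 in WT) was just under the threshold and high in WT alone.

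The genes called lower in WT were ZNF28, ZNF431, ZNF845, ZNF440, ZNF525, ZNF257 and ZNF224. ZNF431 measured 26.4 (Luc), 15.1 (WT), 20.5 (3NQ) and 20.9 FPKM (labelled ΔTM), with log2 ratios of -0.77, -0.35 and -0.33. ZNF845 measured 11.1, 6.28, 7.57 and 7.13, and ZNF525, which lies next to it, 9.43, 5.51, 7.62 and 7.62. Each of these was highest in Luc, lowest in WT and between them in both other libraries. ZNF440 had the same order, with 8.54, 4.95, 5.85 and 7.65. ZNF257 (4.01, 2.14, 4.22 and 3.32) and ZNF224, a KRAB repressor first described on the aldolase A gene (3.07, 1.68, 3.08 and 2.30), were also lowest in WT, but their 3NQ values were close to Luc, with log2 ratios of 0.06 and 0.01.

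**Figure D3:**
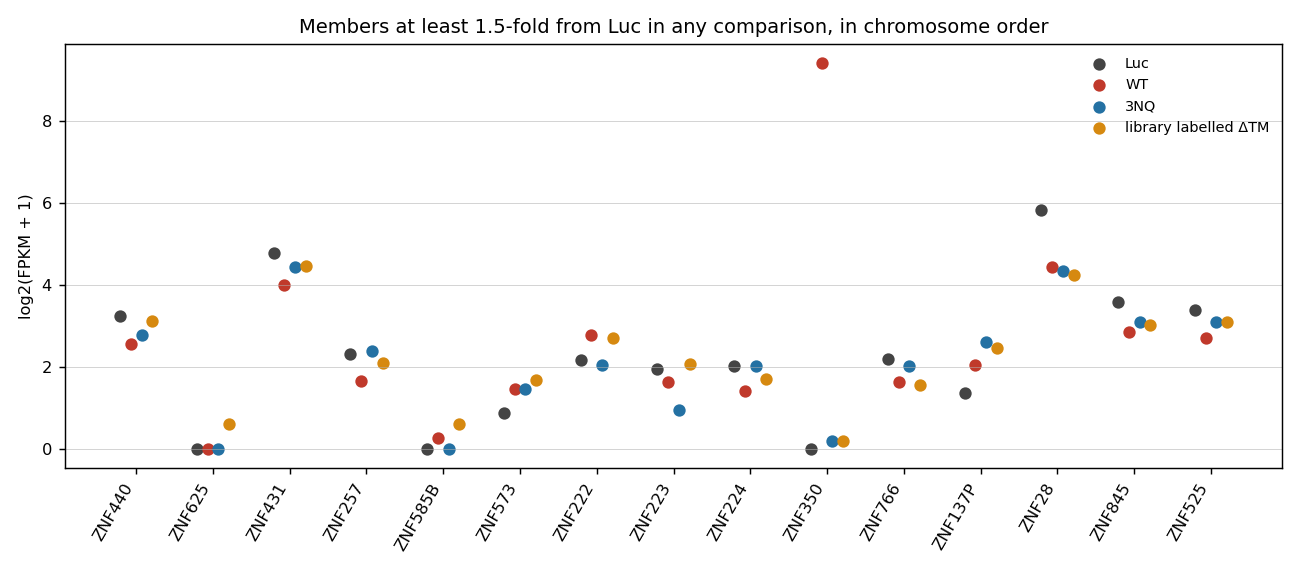
log2(FPKM + 1) in each library of the 15 chromosome 19 ZNF genes at least 1.5-fold from Luc in any comparison, in chromosome order. ZNF28 is high in Luc alone, ZNF137P is low in Luc, and ZNF350 is high in WT alone.

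The comparison of 3NQ with Luc asks the same of the protein without its N-glycosylation sites. In 3NQ 1 gene was called higher, ZNF137P, with a background of 1.79%, and 2 were called lower, ZNF28 and ZNF223, with a background of 2.63%. Both shares were below the background, with the same limit from the low level of the members. ZNF223 (ENSG00000178386) measured 2.84 (Luc), 2.09 (WT), 0.937 (3NQ) and 3.21 FPKM (labelled ΔTM), so that its value was lowest in 3NQ, with a log2 ratio of -0.99. It overlaps another ZNF223 entry on the same strand, ENSG00000267022, which stayed below the level for inclusion. That entry was highest in 3NQ, with 0.214, 2.36e-05, 0.307 and 0.267 in the same order. Of the neighbours ZNF222, ZNF223 and ZNF224 in cluster 12, the first and the second had their lowest value in 3NQ and the last in WT.

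In the library labelled ΔTM 4 entries were called higher, with a background of 1.63%, and 2 were called lower, with a background of 1.65%. The higher ones were ZNF137P, ZNF573 and one entry each of ZNF625 and ZNF585B. ZNF573 measured 0.857 (Luc), 1.78 (WT), 1.77 (3NQ) and 2.19 FPKM (labelled ΔTM), with log2 ratios of 0.58, 0.58 and 0.78, and was lowest in Luc. ZNF625 was at 0.530 in the library labelled ΔTM and at most 6.21e-05 elsewhere, and ZNF585B (ENSG00000267360) was at 0.523, with 0.206 in WT. Both entries overlap other genes on their strand. They reached the 0.5 FPKM for inclusion only through the library labelled ΔTM, the one in which they were called higher, so that these 2 of the 4 calls follow from how members were chosen and are a description. The lower ones were ZNF28 and ZNF766, which measured 3.57, 2.08, 3.09 and 1.94 in the same order of libraries, low in WT and the library labelled ΔTM.

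The 3 comparisons share the Luc library, so that a value particular to Luc enters all of them. ZNF28 and ZNF137P were called in all 3. ZNF28 measured 55.3 (Luc), 20.6 (WT), 19.3 (3NQ) and 17.9 FPKM (labelled ΔTM), with log2 ratios of -1.38, -1.47 and -1.58. The other 3 libraries lay close together and Luc stood apart. ZNF28 overlaps ZNF468 on the same strand, and ZNF468 kept values of 34.4 to 38.1. The pseudogene ZNF137P measured 1.60, 3.14, 5.11 and 4.49, with log2 ratios of 0.67, 1.23 and 1.08, lowest in Luc, and it overlaps ZNF83 on the opposite strand.

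The median log2 ratio of the chromosome 19 ZNF genes was -0.058 (3NQ) and -0.054 (labelled ΔTM), against -0.039 and -0.059 for all genes. Luc held the highest value for 67 of the 183 (36.6%), where the share was 30.7% over all genes, and WT held the lowest for 56 (30.6%), where it was 26.8%. Between any pair of libraries 21 of the 183 (11.5%) reached 1.5-fold, where the background was 15.0%. The low level of the members limits this comparison too. ZNF350, ZNF321P and the entries of ZNF625 and ZNF585B named above reached 0.5 FPKM only through their highest library. Their place in this count therefore follows from how members were chosen. The median span from the lowest to the highest library was 0.34 on the log2 scale, against 0.32 for all genes and 0.29 for ZNF genes elsewhere.

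**Figure D4:**
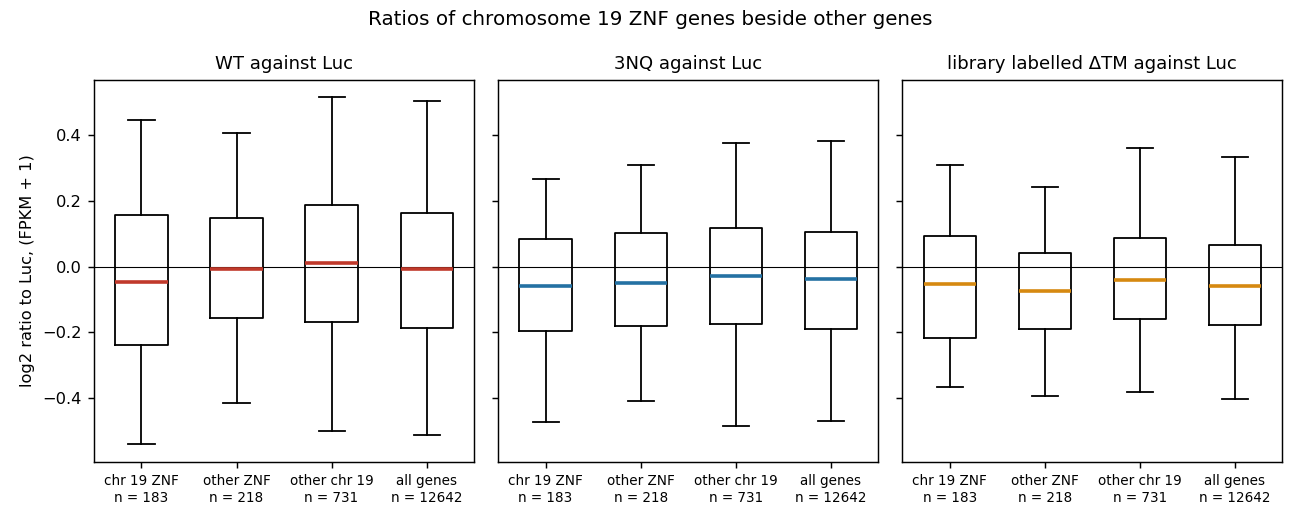
Log2 ratios to Luc of FPKM + 1 for the 183 chromosome 19 ZNF genes, 218 ZNF genes of other chromosomes, 731 other chromosome 19 genes and all 12642 expressed genes, with a panel per comparison. Boxes show quartiles, coloured lines medians and whiskers the 5 to 95 percentiles, and the boxes overlap almost wholly in each panel.

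By position, the medians of WT differed between clusters, a description with no test. In cluster 5, 16 of the 18 expressed genes were below Luc in WT, with a median log2 ratio of -0.29. In 12 of the 18 WT held the lowest of the 4 values. Over all genes, 6480 of 12642 were below Luc in WT, and WT held the lowest value for 26.8%. The medians of cluster 5 in the other comparisons were -0.09 (3NQ) and -0.15 (labelled ΔTM), with 11 of the 18 below Luc in each. In WT, ZNF431 and ZNF257 of this cluster were called lower. ZNF253 (2.39 FPKM in Luc and 1.42 in WT) and ZNF714 (6.82 and 4.71) fell short of the threshold. ZNF429 (3.68 and 4.85) and ZNF91 were above Luc. In cluster 15, 25 of 33 were below Luc in WT, with a median of -0.21. Nearly as many were below Luc in 3NQ (23, median -0.12) and under the ΔTM label (24, median -0.04). WT held the lowest value in 16 of the 33. Luc held the highest in 18 (54.5%), where the share over all genes was 30.7%, so that the low values are not particular to WT. With Luc, 3NQ and the library labelled ΔTM averaged as the control, the medians of WT were -0.21 in cluster 5 and -0.19 in cluster 15. Below that control were 15 of 18 and 27 of 33, and no share over all genes was computed for it. Other expressed genes inside the same intervals had medians in WT of -0.33 in cluster 5, over 2 genes and as low as its ZNF genes, and -0.08 in cluster 15, over 9 genes. In 3NQ these medians were -0.34 and -0.18.

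The other large clusters had medians in WT nearer 0. These were 0.02 in cluster 2, -0.04 in cluster 3, -0.05 in cluster 9, 0.07 in cluster 12 and 0.05 in cluster 16. There 27 of 47 genes were above Luc, beside 6152 of all 12642 genes. In cluster 16 the lowest of the 4 values was in the library labelled ΔTM for 21 of the 47 (44.7%), where the share was 31.4% over all genes. No gene of this cluster was called in any comparison. ZNF419, at 6.53 FPKM in Luc and 4.03 in WT, came closest in WT with a log2 ratio of -0.58. In cluster 12, 3NQ held the lowest value for 10 of 21 (47.6%), where the share over all genes was 23.5%. In cluster 3, Luc held the highest for 10 of 20 (50.0%), where it was 30.7%. Members of a cluster are close relatives whose reads can be shared between copies, so that they are not independent measurements.

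**Figure D5:**
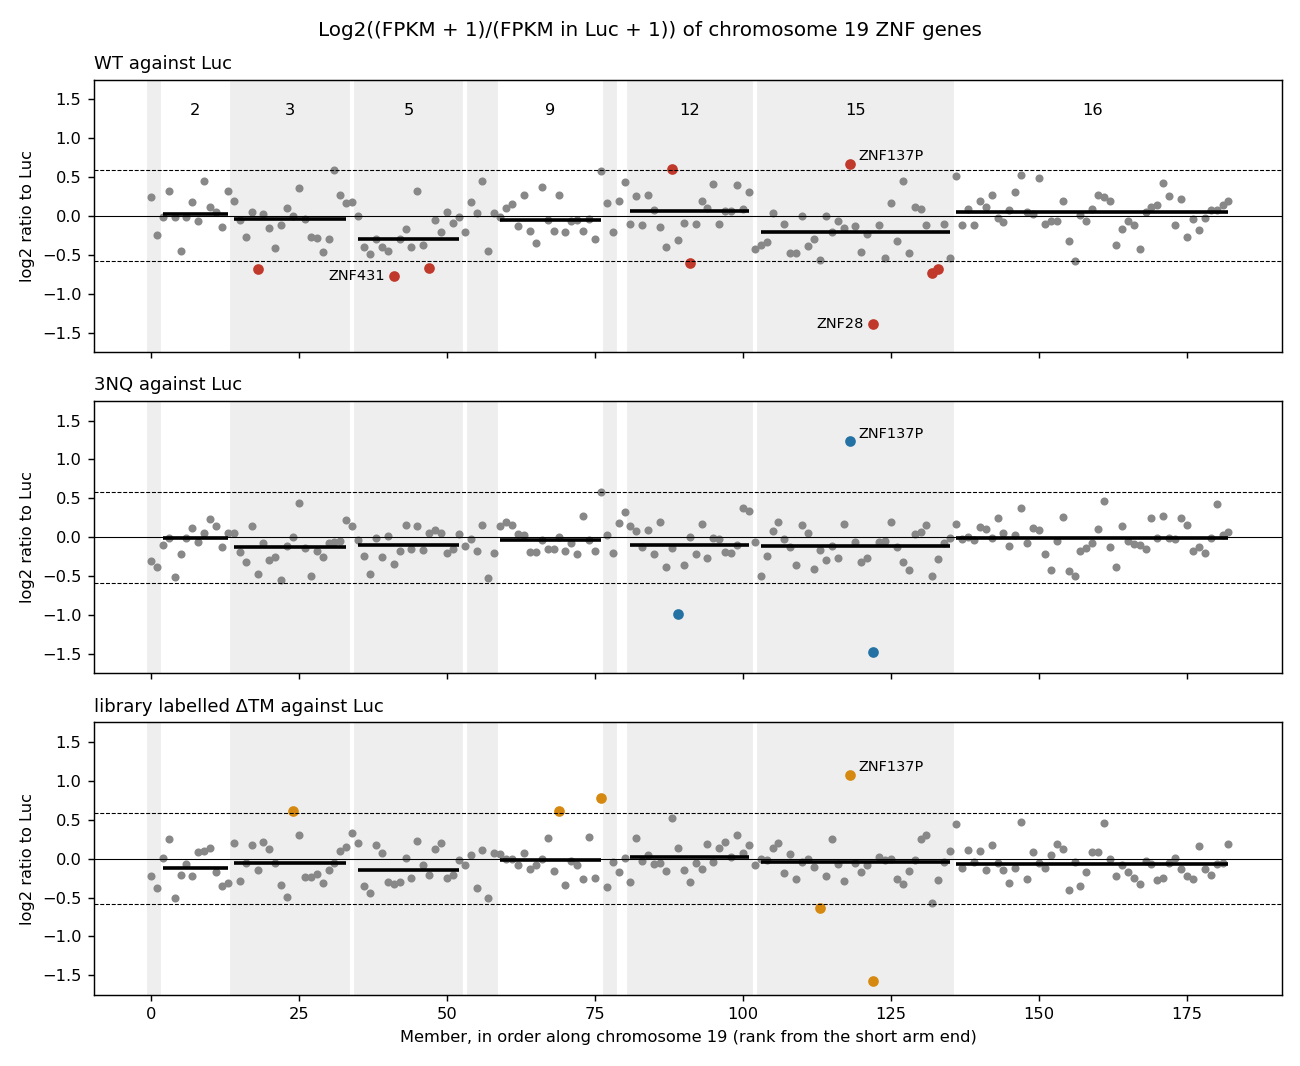
Log2 ratio to Luc of each chromosome 19 ZNF gene, in order along the chromosome, for WT, 3NQ and the library labelled ΔTM. Black bars are cluster medians, shading and numbers mark clusters, dashed lines mark 1.5-fold and coloured points are called genes. ZNF350 is left out of the WT panel, and the WT medians of clusters 5 and 15 lie at -0.29 and -0.21.

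KRAB zinc finger proteins act through corepressors, of which a list of 18 genes was described beside them, and 17 were expressed. TRIM28, the shared partner, measured 431 (Luc), 406 (WT), 442 (3NQ) and 391 FPKM (labelled ΔTM). SETDB1 was at 12.4, 11.2, 9.82 and 10.9, and the HP1 gene CBX3 at 193, 169, 173 and 190. All 3 stayed within 1.5-fold of Luc. In each comparison 0 of the 17 were called higher and 1 lower, and that gene was DNMT1, the maintenance DNA methyltransferase. The share called lower over all genes was 3.37% (WT), 2.63% (3NQ) and 1.65% (labelled ΔTM), so that a count of 0 or 1 of 17 is near the background. DNMT1 measured 122, 59.7, 71.4 and 75.5, with log2 ratios of -1.02, -0.77 and -0.69, high in Luc and lowest in WT. Over all 18 the median log2 ratio was -0.067 (WT), -0.13 (3NQ) and -0.029 (labelled ΔTM), against -0.0079, -0.039 and -0.059 for all genes.

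Of 5 genes described as partners or targets of ZNF350, 1 was called higher and 1 lower in WT, where 3.37% of all genes were called in each direction. GADD45A, a growth arrest gene that ZNF350 is known to repress, measured 23.4 (Luc), 36.8 (WT), 28.1 (3NQ) and 29.1 FPKM (labelled ΔTM), with a log2 ratio of 0.63 in WT. GADD45A and ANGPT1 were highest in WT, where ZNF350 was highest too, and HMGA2, BRCA1 and RBBP8 were lowest in WT. HMGA2, which encodes a chromatin protein, measured 46.5, 28.9, 30.0 and 43.0, low in both WT and 3NQ, with log2 ratios of -0.67 and -0.62. BRCA1, the partner of ZNF350, was at 17.7, 12.1, 14.8 and 17.0. RBBP8, which encodes the CtIP protein, stayed between 13.0 and 15.2, and ANGPT1, an angiopoietin gene, between 3.61 and 4.87. The median log2 ratio of the 5 was -0.12 in WT, against -0.0079 for all genes, and in 3NQ 0 were called higher and 1 lower, where the shares over all genes were 1.79% and 2.63%. Any part of ZNF350 in these values was not tested.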

How the data were processed

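Poly(A) RNA of MKN28 cells was sequenced as 1 library per group. Per the labels and the study's methods, the authors mapped reads to GRCh37 with TopHat and estimated gene expression with Cufflinks 2.1.1, with non-coding regions masked and the multi-read and bias corrections on. The deposited unit is FPKM, scaled by the authors for library size and gene length. No counts were used here, so that depth is unknown, no interval could be given and a listed 0 can be a failed estimate. Of the 183 genes, 65 overlap another entry on the same strand, and strandedness was not given in the sources used here.

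Ratios were log2((FPKM + 1)/(FPKM in Luc + 1)) over the 12642 of 23362 genes at 0.5 FPKM or more in a library, called at 1.5-fold with no test. Named were ZNF350, entries within 250 kb of its start, the 10 highest by mean, the 5 highest and 5 lowest ratios per comparison, the 3 nearest the level on each side, cluster leaders and genes listed from background knowledge. Others, such as ZNF253, ZNF257 and ZNF224, were chosen after their values were seen. Members and lists were chosen with earlier results of these data known. Alternatives were pseudocounts of 0.1 and 5, other FPKM minimums, a 2-fold threshold and 2 rescalings. Zinc fingers were counted as C2H2 patterns in GENCODE coding sequences, leaving out any with an internal stop. Python 3.11.15, numpy 2.4.6, pandas 2.3.3, Biopython 1.88 and matplotlib 3.10.9 were used, and the calls were tested on simulated data.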

Additional observations from a re-analysis of the deposited data

How the results depend on the processing

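Counts of called chromosome 19 ZNF genes moved with the pseudocount, and no share over all genes was recomputed beside them. With 0.1 in place of 1 they were 13 higher and 16 lower in WT, 5 and 13 in 3NQ, 8 and 11 under the ΔTM label, and 59 between any pair. With 5 they were 1 higher and 2 lower in WT, 1 lower in 3NQ, 0 higher and 1 lower under the ΔTM label, and 4 between any pair. At a 2-fold threshold each count against Luc was 1, and any pair gave 4. With an FPKM of at least 1, 2 were higher in the library labelled ΔTM, and with at least 5, 1 higher and 1 lower there, 1 lower in 3NQ and 11 between any pair. Rescaling by the median of ratios gave 2 higher in 3NQ. Of the ratios of named genes, 17 gained a call with a pseudocount of 0.1, 11 lost one with 5, 2 gained one under the median of ratios, and 1, ZNF222 in WT, lost it under the upper quartile. The median log2 ratios of the chromosome 19 ZNF genes moved by less than 0.1 under every alternative run. The main medians were themselves smaller than 0.1 in size, so that this limit does not show that they held. For WT against Luc the main median was -0.048. It was 0 with no filter on low values and -0.103 with an FPKM of at least 5, and the other settings lay between these values. A gap of 0.5 Mb gave 21 clusters. The median log2 ratio of cluster 5, WT against Luc, was -0.43 and -0.12 with pseudocounts of 0.1 and 5, the median log2 ratio of cluster 15, WT against Luc, was -0.35 and -0.11 with the same pseudocounts, and the median log2 ratio of cluster 2, WT against Luc, was -0.00083 after upper quartile rescaling. Cluster medians and the any-pair count were added after seeing the data. No paired analysis was possible because each group has 1 library.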

Other observations

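A value of at least 100 FPKM in 1 library with less than 1 in the other 3, the pattern of ZNF350, was found for 6 entries of the whole table. The others were SNORA71A, a small nucleolar RNA gene, at 1516 FPKM in the library labelled ΔTM, NT5DC4 at 236 in the same library, ASPG at 290 in 3NQ, and RP11-193F5.1 and AC007382.1 at 198 and 368 in Luc. Each of the 4 libraries held at least 1 such entry, and none of the other 5 lies on chromosome 19. SNORA71A (37055949 to 37056086 of chromosome 20) and AC007382.1 (37068327 to 37068530 of chromosome 2) are shorter than the library fragments in the study's methods. This limits how far their FPKM can be set beside that of ZNF350. The 6 entries were found after the value of ZNF350 was seen, and no cause was tested.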
